A study of Mus musculus with 2 samples.

Results

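A set of 10 genes that govern whether a cell stays in the cell cycle were followed through muscle and neuronal differentiation in mouse somites. They were taken by symbol from the 27998 genes of the deposited tables, and all 10 were found: the cyclin-dependent kinase inhibitors Cdkn1a, Cdkn1b and Cdkn1c, the D cyclins Ccnd1, Ccnd2 and Ccnd3, the growth arrest genes Gadd45a, Gadd45b and Gadd45g, and the retinoblastoma gene Rb1. Droplet-based single-cell RNA sequencing had been run on inter-limb somites dissected from untreated wild type C57BL/6 embryos of 2 stages, E9.5 and E11.5. Each stage was 1 library made from 3 pooled embryos, so stage and library cannot be told apart and no test across embryos was possible.

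D cyclins bind Cdk4 and Cdk6 and phosphorylate the Rb protein, which releases E2F factors and lets a cell enter S phase. The Cip/Kip inhibitors, encoded by Cdkn1a, Cdkn1b and Cdkn1c, bind cyclin and kinase complexes and hold them inactive, and Gadd45 proteins are small stress and growth arrest factors. In skeletal muscle, myoblasts leave the cell cycle as they turn on Myog and then contractile genes, and Cdkn1a, Cdkn1c and Rb1 are known from mouse mutants and cultured myoblasts to take part in that exit.

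There were 149368952 UMIs (unique molecular identifiers, each standing for 1 captured transcript) over 10121 barcodes at E9.5, and 136655763 UMIs over 10167 barcodes at E11.5. Cells with at least 200 and fewer than 6500 genes and under 15% mitochondrial UMIs were kept, which left 9851 E9.5 cells (median 12462 UMIs) and 9595 E11.5 cells (median 12479). The 2 libraries shared 30 barcodes. Scrublet, run on all barcodes before this filter, called 6.75% doublets among E9.5 barcodes but 4.00% among E11.5 barcodes, and none was removed for it.

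Muscle cells were gated on raw UMIs of Pax7 (progenitors), Myod1 (committed myoblasts), Myog (differentiating cells) and Acta1 (skeletal actin, cells building contractile filaments). At E11.5 the gates held 103, 185, 301 and 199 cells. A cell with at least 3 UMIs of Mki67 and Top2a together was called cycling. Any other cell was called non-cycling, which means few such UMIs and not that the cell had left the cell cycle. By that measure 75.7% of Pax7, 58.9% of Myod1, 47.8% of Myog and 9.05% of Acta1 cells were cycling. After cells were thinned to 5000 UMIs the shares were 58.8%, 35.9%, 35.3% and 6.13%. Cells with too few UMIs for this were left out, here 1, 1, 12 and 36, so each thinned share covers fewer cells. At E9.5 the Pax7 gate held 19 cells, all cycling, the Myod1 gate 0, the Myog gate 13 and the Acta1 gate 7, too few for ratios under a minimum of 20 cells. Neurons were gated on Tubb3 together with Elavl3, Elavl4 and Stmn2, giving 136 cells at E9.5 and 401 at E11.5.

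Markers that the gates did not use matched the names of the Myog and Acta1 gates and of neurons. They set the Pax7 and Myod1 gates apart little. The summed level of 9 differentiating muscle genes, such as Mylpf and Myh3, was 924 UMIs per 1000000 UMIs of the class (UPM) in the Pax7 gate, 865 in the Myod1 gate, 5206 in the Myog gate and 45420 UPM in the Acta1 gate. In non-cycling cells of these gates, 5 muscle progenitor genes summed to 695, 586, 533 and 470 UPM. Of 9 neuronal genes, such as Dcx and Gap43, all were detected in E11.5 neurons, at a summed 8304 UPM against 73.2 to 112 UPM in the muscle gates. Over all cells of a muscle gate, endothelial, white blood and epithelial lists summed to at most 13.1 UPM. With cycling and non-cycling cells taken apart, the highest of these was the endothelial list, at 18.1 UPM in non-cycling Myod1 cells. Other lists reached higher levels. In the same split, neural crest genes summed to 49.4 to 103 UPM. Sclerotome genes summed to 4.72 to 71.4 UPM and red blood genes to 38.7 to 63.7 UPM. Over all cells of a gate, the neural progenitor list summed to 127 to 818 UPM. Of that sum Nes, which muscle cells also express, made up 102 to 812. Msx3 and Olig2 were at 0 and Hes5 and Pax6 at 2 UMIs or fewer in each muscle gate.

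All levels below are UPM, with exact 95% Poisson intervals in brackets. Ratios are log2 ratios of UPM with exact 95% intervals. Both cover counting error of the pooled UMIs only, not the spread between cells or between embryos. Intervals that do not overlap are thus no test between classes. A member counted as higher or lower past a 2-fold ratio with at least 50 UMIs in both classes together, and the share of all genes past the same limit is given as the background.

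On the GRCm38 (mm10) assembly with GENCODE M21, the Cip/Kip genes Cdkn1a, Cdkn1b and Cdkn1c lie at chr17:29090976-29100727, chr6:134920401-134925513 and chr7:143458339-143461050. Ccnd1, Ccnd2 and Ccnd3 lie at chr7:144929931-144939925, chr6:127125162-127152193 and chr17:47505051-47599691. Gadd45a, Gadd45b and Gadd45g lie at chr6:67035096-67037457, chr10:80930073-80932204 and chr13:51846678-51848468, and Rb1 lies at chr14:73183673-73325822. All 10 are protein coding genes.

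Myod1 and Myog proteins bind E-boxes, the letters CANNTG, and CAGCTG is an E-box that reads the same on both strands. RefSeq promoter windows of 300 bases (GRCm38.p6, 250 before and 50 after a start) were on hand for 6 members, in 8 windows. The upstream 250 bases are shown for Cdkn1a and Gadd45g, since of the members with a window these had the largest ratios between the Myod1 and Myog gates, with E-box letters in capitals. The Cdkn1a sequence is chr17:29093519-29093768 and the Gadd45g sequence chr13:51846425-51846674, both on the plus strand.
Cdkn1a: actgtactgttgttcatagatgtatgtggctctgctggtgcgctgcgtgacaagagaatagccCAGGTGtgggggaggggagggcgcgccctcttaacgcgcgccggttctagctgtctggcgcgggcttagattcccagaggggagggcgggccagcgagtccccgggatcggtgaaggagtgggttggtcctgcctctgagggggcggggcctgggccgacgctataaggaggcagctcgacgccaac
Gadd45g: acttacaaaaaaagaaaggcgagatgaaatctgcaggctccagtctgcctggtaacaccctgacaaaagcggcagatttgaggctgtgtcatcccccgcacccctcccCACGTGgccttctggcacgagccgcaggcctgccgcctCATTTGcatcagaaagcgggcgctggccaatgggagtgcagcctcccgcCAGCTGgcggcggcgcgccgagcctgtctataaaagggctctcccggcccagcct

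The Gadd45g window held 3 CANNTG matches, of which 1 was CAGCTG. The Cdkn1a window shown held 2 in all, 1 of them in the upstream part, and the other Cdkn1a window held 1, a CAGCTG downstream of the start. Gadd45a and Gadd45b had 1 each, and the Cdkn1b window and both Ccnd3 windows held 0. Over all 32851 windows of that length 72.3% held CANNTG and 16.3% held CAGCTG, so such a match is common and is given here as a description of the letters.

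Cdkn1a was nearly silent in progenitors and high from the Myog gate on. In non-cycling cells at E11.5 it measured 24.6 [11.3 to 46.8] in the Pax7 gate, 12.4 [6.58 to 21.1] in the Myod1 gate, 958 [918 to 1000] in the Myog gate and 1378 [1336 to 1420] UPM in the Acta1 gate. The Pax7 and Myod1 intervals overlapped, and both later gates lay apart from them and from each other. The Myog over Myod1 ratio was 6.28 [5.50 to 7.19], 77.6-fold, and the Acta1 over Myog ratio was 0.52 [0.45 to 0.60]. Cdkn1a was detected in 218 of 301 Myog cells (72.4%) and 189 of 199 Acta1 cells, against 3.20% of red blood cells of similar depth (medians of 17377, 17182 and 16833 UMIs). Their median numbers of genes were 3985, 3913 and 1693, so a like depth is not a like chance of detection in red blood cells. This limit applies to each such share of red blood cells below. Cdkn1a was low in every other class of at least 20 cells: after the Acta1 and Myog gates at E11.5, the next levels were 38.7 UPM in white blood cells at E11.5 and 32.1 UPM in epithelial cells at E9.5. The few E9.5 muscle cells past these gates had it too, at 488 UPM in 13 Myog cells and 939 UPM in 7 Acta1 cells.

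Cycling cells of the Myog gate already carried Cdkn1a. It stood at 0.616 [0.0156 to 3.43] UPM in 78 cycling Pax7 cells, where 1 UMI was found, at 5.59 [2.98 to 9.56] in 109 cycling Myod1 cells, at 349 [330 to 370] in 144 cycling Myog cells and at 815 [741 to 895] UPM in 18 cycling Acta1 cells. The Myog over Pax7 ratio among cycling cells was 9.15 with an interval of 6.67 to 14.5, since its denominator is that 1 UMI, and 5.77 with looser gates. Within the Myog gate, cycling cells had less than non-cycling cells, with a ratio of -1.46 [-1.56 to -1.35]. Cycling Myog cells also held more RNA, with a median of 23171 UMIs against 14137, and as UMIs per cell the ratio was -0.68, under 2-fold.

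**Figure D1:**
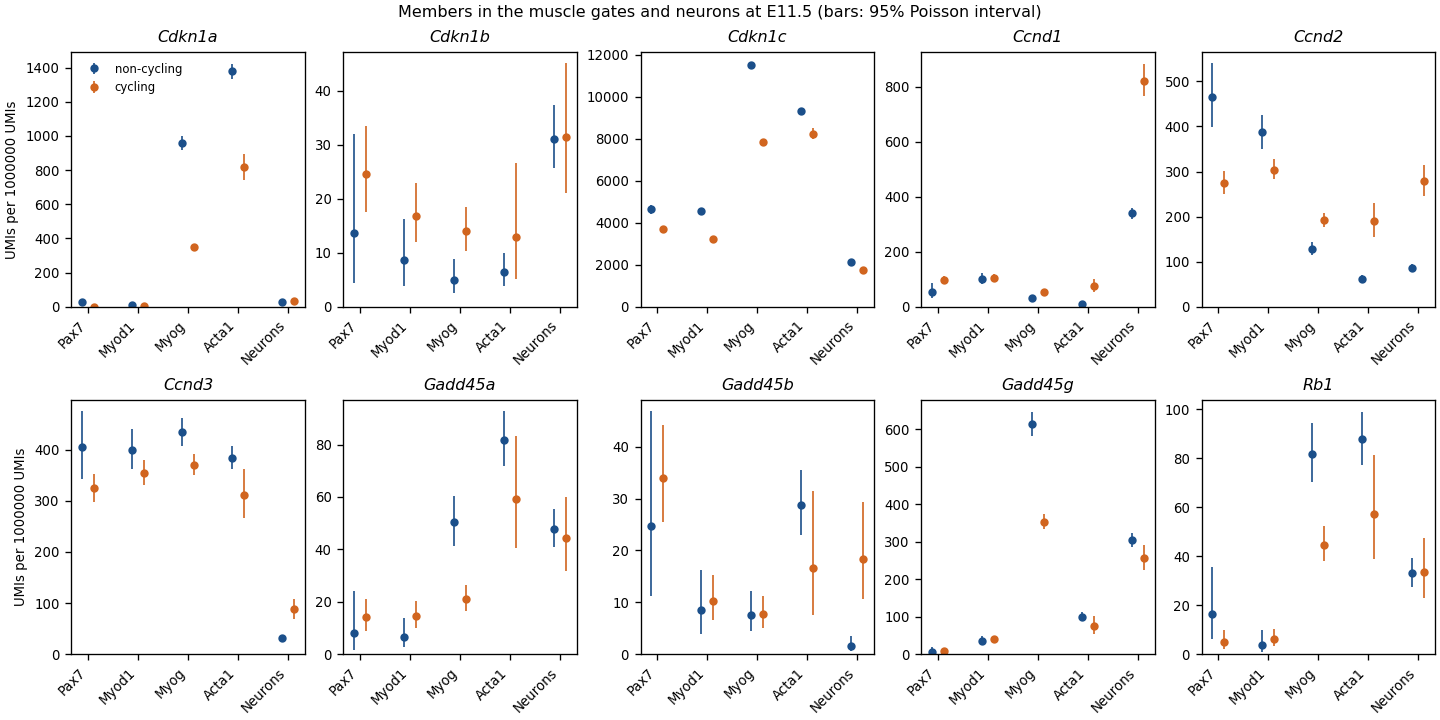
Levels of the 10 members (UMIs per 1000000 UMIs of the class, linear axes from 0) in non-cycling (blue) and cycling (orange) cells of the 4 muscle gates and of neurons at E11.5, with exact 95% Poisson intervals as bars. Cdkn1a is near the axis in the Pax7 and Myod1 gates and at 349 to 1378 in the Myog and Acta1 gates, Gadd45g peaks in the Myog gate, and Ccnd3 is level across the muscle gates.

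The split of the Myog gate was then made finer. Cdkn1a was 1111 [1057 to 1168] UPM in 107 cells with no Mki67 or Top2a UMI, 691 in 50 cells with 1 or 2, and 218 in 30 cells with 3 to 9. It was higher again at the far end, with 327 UPM in 89 cells with 10 to 29 and 514 UPM in 25 cells with 30 or more. The level was thus lowest in the middle bin, not in the cells with the most proliferation transcripts. Myog, the gating gene, was lowest in the same bin, at 4237, 2892, 1190, 1506 and 1646 UPM in the same order. Median depth also differed between these bins, from 13458 UMIs in the first to 29279 in the last. The part of Myog level or of depth in the Cdkn1a pattern was not tested. Read the other way and thinned to 5000 UMIs, 71.3% of 108 cells without a Cdkn1a UMI had Mki67 or Top2a, 56.5% of 62 cells with 1 or 2, 49.1% of 55 cells with 3 to 5, and 26.6% [16.3 to 39.1] of 64 cells with 6 or more. Pooled levels moved less. In unthinned bins of 0, 1 to 4, 5 to 14 and 15 or more Cdkn1a UMIs, Mki67 was 133, 152, 109 and 130 UPM. Top2a was 442, 360, 365 and 305 UPM, while Myog was 834, 1603, 2709 and 4170 UPM.

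**Figure D2:**
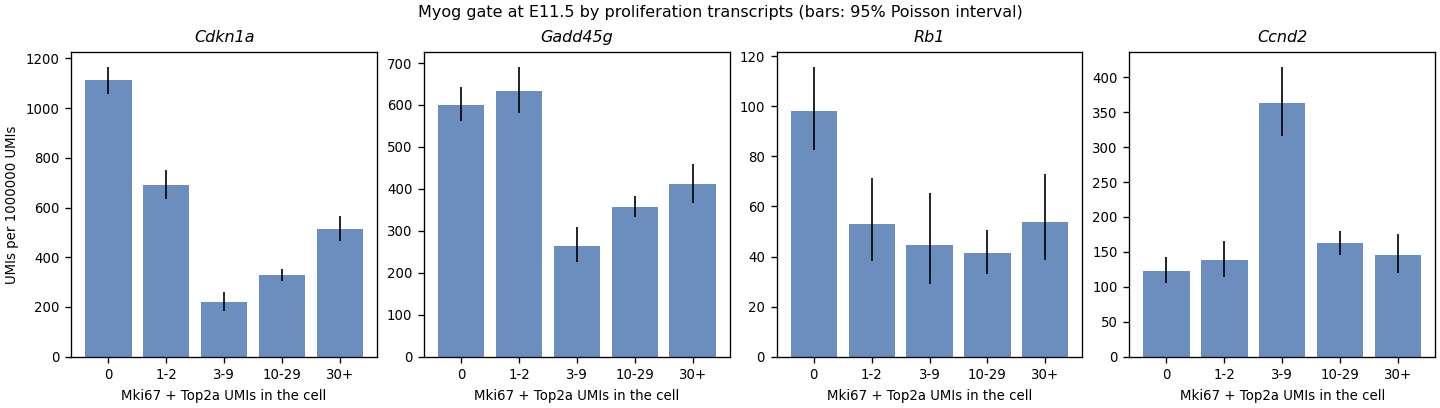
Levels of Cdkn1a, Gadd45g, Rb1 and Ccnd2 (UMIs per 1000000 UMIs, linear axes from 0) in E11.5 Myog gate cells binned by their Mki67 and Top2a UMIs, with exact 95% Poisson intervals. Cdkn1a falls from 1111 to 218 over the first 3 bins and stands at 514 in the last, while Ccnd2 is highest, at 363, in the middle bin.

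Cdkn1c was present before differentiation and higher after it. It measured 4635 [4417 to 4861] UPM in non-cycling Pax7 cells, 4539 in Myod1 cells, 11500 in Myog cells and 9323 UPM in Acta1 cells. The first pair did not differ beyond the interval of their ratio, -0.03 [-0.11 to 0.05], the Myog over Myod1 ratio was 1.34 [1.30 to 1.39], and the Acta1 gate was slightly below the Myog gate at -0.30 [-0.33 to -0.28]. Each of the 103 Pax7 cells, 185 Myod1 cells and 301 Myog cells had at least 1 Cdkn1c UMI. The median Myog cell had 166. Such detection was not particular to muscle: at E11.5 the share was 99.5% in sclerotome, 98.4% in endothelial cells, 96.3% in epithelial cells and 95.8% in neurons. Cdkn1c was found in fewer white blood cells (36.0%) and red blood cells (22.4%). Cycling cells were not devoid of it: the cycling Pax7, Myod1 and Myog cells had 3708, 3233 and 7835 UPM. In the Myog gate the cycling over non-cycling ratio was -0.55 as UPM and 0.22 as UMIs per cell, so its direction depends on whether depth is divided out.

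Cdkn1b showed no such gain. Non-cycling cells of the Pax7, Myod1, Myog and Acta1 gates had 13.7 [4.44 to 31.9], 8.55 [3.91 to 16.2], 4.94 [2.46 to 8.83] and 6.41 [3.86 to 10.0] UPM, from 5 to 19 UMIs each, and all these intervals overlapped. Over all cells of these gates it was lower late, at 22.6 [16.5 to 30.3], 14.2, 10.5 and 7.42 [4.85 to 10.9] UPM. The first and last did not overlap. The share of cycling cells also differed between the gates, and its part was not tested. In the Myog gate its ratio of cycling over non-cycling cells was 1.50 [0.54 to 2.60], on 60 UMIs. After thinning to 5000 UMIs per cell the ratio was 1.23, on 20 UMIs, too few to count as higher.

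Ccnd1 and Ccnd2 were lower in the Myog gate than in the Myod1 gate, and lower again in the Acta1 gate. In non-cycling cells Ccnd1 was 54.8 [33.4 to 84.6] UPM in the Pax7 gate and higher, at 102 [83.3 to 123] UPM, in the Myod1 gate. These 2 intervals just overlapped. Ccnd1 was 32.8 UPM in the Myog gate and 10.5 [7.11 to 14.8] UPM in the Acta1 gate. Ccnd2 was 465, 387, 128 and 60.7 [52.2 to 70.3] UPM in the same order. The Acta1 over Pax7 ratio was -2.39 [-3.24 to -1.50] for Ccnd1 and -2.94 [-3.25 to -2.63] for Ccnd2. With stricter gates the last step, Acta1 over Myog, was -0.87 for Ccnd1 and -0.67 for Ccnd2, under 2-fold, in place of -1.65 and -1.08.

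Ccnd3 did not follow them. It was 405 [343 to 476] UPM in non-cycling Pax7 cells, 400 [363 to 440] in Myod1 cells, 434 [408 to 463] in Myog cells and 384 [362 to 407] UPM in Acta1 cells, with neighbouring ratios between -0.18 and 0.12. The 4 muscle gates of E11.5 had the highest Ccnd3 of all classes of at least 20 cells, cycling cells included, from 339 [314 to 366] UPM in the Pax7 gate to 395 [379 to 412] UPM in the Myog gate, which did not overlap. Red blood cells came next, with 337 [312 to 364] UPM at E9.5 and 325 [302 to 349] UPM at E11.5, and both overlapped the Pax7 gate but not the Myog gate. Neurons were at the bottom with 43.2 UPM at E11.5 and 47.8 UPM at E9.5. The Acta1 over Pax7 ratio of Ccnd3 was -0.08 [-0.32 to 0.18], an interval that excludes the ratios of the other D cyclins.

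In the Pax7, Myod1 and Myog gates the D cyclins differed by less than 2-fold in UPM between cycling and non-cycling cells. The cycling over non-cycling ratio in the Pax7 gate was 0.80 [0.12 to 1.55] for Ccnd1, -0.76 [-1.02 to -0.50] for Ccnd2 and -0.32 [-0.59 to -0.05] for Ccnd3. In the Myod1 gate the same ratios were 0.04, -0.35 and -0.17, and in the Myog gate 0.71, 0.58 and -0.23. As UMIs per cell, without dividing out depth, some passed 2-fold: Ccnd1 at 1.31 in the Pax7 gate, and Ccnd1 at 1.49 and Ccnd2 at 1.36 in the Myog gate. The Acta1 gate, with 18 cycling cells too few for a ratio, had 73.8 [52.7 to 100] UPM of Ccnd1 in cycling and 10.5 UPM in non-cycling cells. Ccnd2 was 190 [155 to 230] against 60.7 UPM there. Neither pair of intervals overlapped, while Ccnd3 was 312 against 384 UPM. Median depth was 31779.5 UMIs in the cycling and 16488 in the non-cycling Acta1 cells, and doublets were not removed. The part of depth or of doublets in these levels was not tested. Of the mitosis genes, 9 of 10 in the Pax7 and Myod1 gates and 10 of 10 in the Myog gate passed 2-fold, Aurkb with ratios of 4.80 to 5.30. The split used Mki67 and Top2a and so favoured that outcome, which is no measure to set the D cyclins against. Of 10 replication genes, 1 was higher and 2 were lower in cycling Pax7 cells. In the Myod1 gate 0 were higher and 0 lower, and in the Myog gate 2 were higher and 0 lower. The replication list summed to 1525 UPM in non-cycling and 1383 UPM in cycling Pax7 cells. In the same order it was 1508 and 1525 UPM in Myod1 cells, 781 and 1291 in Myog cells, and 170 and 982 UPM in Acta1 cells. Non-cycling Pax7 and Myod1 cells thus held about as much replication RNA as cycling ones. In these gates the name does not stand for exit from the cell cycle, which was not tested.

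Gadd45g peaked in the Myog gate. It was 5.48 [0.663 to 19.8] UPM in non-cycling Pax7 cells, 36.1 [25.6 to 49.6] in Myod1 cells, 613 [581 to 646] in Myog cells and 99.6 [88.5 to 112] UPM in Acta1 cells. The Myog gate stood apart from the gates on either side, with a ratio of 4.09 [3.62 to 4.59] over the Myod1 gate and a ratio of -2.62 [-2.81 to -2.44] for the Acta1 gate over it. Of Myog cells 91.7% had a Gadd45g UMI, and of Acta1 cells 43.2%, where the share in red blood cells was 36.0%. After thinning to 5000 UMIs the shares were 75.4%, 28.2% and 15.8%. Cycling Myog cells had 353 UPM, 47.8-fold the 7.39 UPM of cycling Pax7 cells.

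Gadd45a, the second of the family, was higher late. Its level was 8.21 [1.69 to 24.0] UPM in non-cycling Pax7 cells, from 3 UMIs, 6.65 in Myod1 cells, 50.3 [41.4 to 60.5] in Myog cells and 81.7 [71.7 to 92.6] UPM in Acta1 cells. Cycling Myog cells had 21.1 UPM, with a ratio of -1.25 [-1.69 to -0.81] to the non-cycling cells that became -0.47 as UMIs per cell.

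Gadd45b followed neither of them. It was 24.6 [11.3 to 46.8] UPM in non-cycling Pax7 cells, 8.55 in Myod1 cells, 7.63 in Myog cells and 28.7 [22.9 to 35.5] UPM in Acta1 cells, so both ends of the series were high. The Acta1 over Myog ratio was 1.91 [1.15 to 2.76], and among cycling cells Myog over Pax7 was -2.13 [-2.86 to -1.44]. A list of 11 immediate early and stress genes, which handling of cells can induce, moved with it in part. Over all cells of a gate its summed level was 402 UPM in the Pax7 gate, 354 in the Myod1 gate, 170 in the Myog gate and 255 UPM in the Acta1 gate, and all 11 were detected in the Pax7 and Acta1 gates. In non-cycling cells the list was at 375, 365, 169 and 262 UPM, with 5, 8, 9 and 11 genes detected. Its part in the Gadd45b pattern was not tested.

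Rb1, the target of the D cyclin kinases, was higher in the same gates as Cdkn1a. It measured 16.4 [6.03 to 35.8] UPM in non-cycling Pax7 cells, from 6 UMIs, 3.80 [1.04 to 9.73] in Myod1 cells, 81.7 [70.2 to 94.5] in Myog cells and 87.7 [77.4 to 99.1] UPM in Acta1 cells. The later pair overlapped, with a ratio of 0.10 [-0.18 to 0.38], and the Myog over Myod1 ratio was 4.43 [3.04 to 6.32]. Rb1 was found in 52.8% of Myog cells and 61.3% of Acta1 cells, against 14.4% of red blood cells and 9.19% of Myod1 cells. Cycling Myog cells had 44.6 UPM and cycling Pax7 cells 4.92 UPM.

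Counted together, 5 of 8 members with enough UMIs were higher in Myog than in Myod1 non-cycling cells, where 7.65% of all genes were. Lower were 2, where 5.18% of all genes were. Cdkn1a, Rb1, Gadd45a and Gadd45g met the minimum only through the Myog gate, with 13, 4, 7 and 38 UMIs in Myod1 cells. Cdkn1b and Gadd45b, low in both gates, were not counted, so the count favours members high in 1 gate. From the Myog to the Acta1 gate 1 of 9 was higher (10.1% of all genes), Gadd45b, which had 17 UMIs in Myog cells, and 3 were lower (7.36%). Over the whole span from Pax7 to Acta1, 5 of 9 were higher (17.5%) and 2 lower (13.1%). The 5 were Cdkn1a, Cdkn1c, Gadd45a, Gadd45g and Rb1. Cdkn1a, Rb1, Gadd45a and Gadd45g there rested on 9, 6, 3 and 2 Pax7 UMIs. The ratios of Gadd45a and Gadd45g were 3.31 [1.75 to 5.60] and 4.18 [2.32 to 7.24]. Cdkn1c was at 1.01, or 0.98 after thinning. Between the Pax7 and Myod1 gates 0 of 4 moved either way (1.08% of all genes higher and 0.865% lower).

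Among cycling cells 4 of 10 members were higher in the Myog than in the Pax7 gate, where 2.74% of all genes were, namely Cdkn1a, Cdkn1c, Gadd45g and Rb1. Cdkn1a, Rb1 and Gadd45g met the minimum only through the Myog gate, with 1, 8 and 12 UMIs in cycling Pax7 cells. That count thus favours members high in 1 gate. Gadd45b was the 1 lower (3.05%). Between cycling and non-cycling cells of one gate, 0 of 5 members moved in the Pax7 gate (5.85% of all genes higher and 0.47% lower) and 0 of 5 in the Myod1 gate (3.54% and 0.457%). In the Myog gate 1 of 9 was higher in cycling cells (5.5%), Cdkn1b, and 2 were lower (3.04%), Cdkn1a and Gadd45a. These calls turned with the scaling. As UMIs per cell Cdkn1b, Ccnd1 and Ccnd2 were past 2-fold higher, at 2.28, 1.49 and 1.36, and no member was past 2-fold lower. Cycling Myog cells held more UMIs, so the ratio of every gene is higher at that scaling. After thinning Cdkn1a alone was past 2-fold lower with enough UMIs, and no member was higher. The share of all genes is not given at either scaling, so these calls are not set against a background.

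The members were then followed without gate borders, in 1291 E11.5 cells binned by Myog UMIs: the 788 gated muscle cells and others with a Myod1 or Myog UMI, of which 54, with at most 4 Myog UMIs, met the gate of another class. From 0 through 1 to 4, 5 to 14, 15 to 39 and 40 or more Myog UMIs, Cdkn1a was 5.49, 25.9, 109, 493 and 1299 UPM, with no 2 intervals overlapping. Rb1 was 4.79, 6.52, 14.4, 42.7 and 101 UPM, and Gadd45g was 28.0, 49.3, 144, 277 and 396 UPM. The bins are not an order of differentiation: Acta1 was 7.74, 92.9, 513, 2948 and 2365 UPM over them, so the bin of 1 to 4 Myog UMIs also held Acta1 transcripts, and the last bin held less than the one before. Gadd45g and Cdkn1a were above the first bin at 1 to 4 Myog UMIs, while the first 2 Rb1 intervals and the first 3 of Gadd45a (13.1, 13.0 and 10.3 UPM) overlapped. Cdkn1c was 3382 and 3347 UPM in the first bins and 4830, 7314 and 11649 UPM after them. Ccnd1 went from 96.9 and 114 to 92.9, 38.7 and 21.6 UPM, Ccnd2 from 359 and 406 to 276, 163 and 88.5 UPM, and Ccnd3 stayed between 308 and 389 UPM. Cdkn1b was 18.0, 18.1, 15.4, 11.3 and 7.94 UPM, and its first and last intervals did not overlap. The share of cycling cells over these bins was 62.7%, 52.8%, 54.5%, 34.3% and 27.0%.

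**Figure D3:**
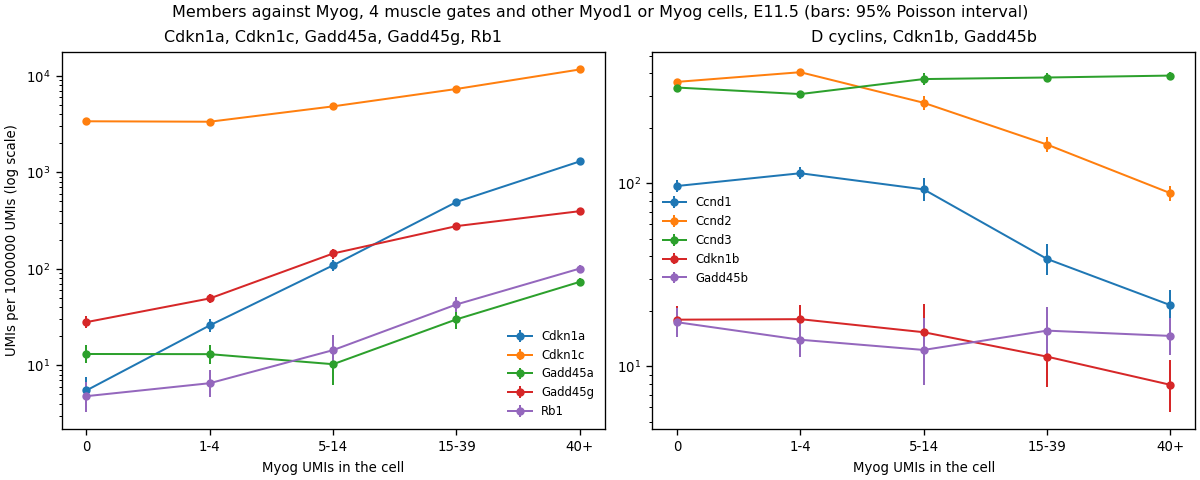
Levels of the members (UMIs per 1000000 UMIs, log axis) in 1291 E11.5 cells binned by Myog UMIs per cell, with exact 95% Poisson intervals. Cdkn1a goes from 5.49 to 1299 and Rb1 from 4.79 to 101 over the 5 bins, Ccnd1 and Ccnd2 end at 21.6 and 88.5, and Ccnd3 stays between 308 and 389.

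Replication genes and S phase cyclins were mostly lower at the last step, from Myog to Acta1. Of 10 replication genes, 4 were lower in non-cycling Myog than Myod1 cells, and 9 of the 9 with enough UMIs were lower in Acta1 than Myog cells, Mcm3 by a ratio of -3.13 and Rrm2 by -2.77. Of G1 kinases and S phase cyclins 1 of 5 was lower at the first step, Ccne1 at -1.15, and 4 of 5 at the second, with Ccna2 at -2.62 and Cdk4, the D cyclin partner, at -1.03. Pocket proteins and E2F genes moved less: 2 of 8 were lower at that step, E2f1 and E2f2, targets and partners of Rb, at -2.10 and -2.83, and the median of the list was -0.54. Of 5 other CDK inhibitors, 1 had enough UMIs at either step and did not move past 2-fold.

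Known p53 targets were set beside Cdkn1a, itself a textbook p53 target. Of the 6 others with enough UMIs, 1 was higher in Myog than Myod1 cells, Btg2, an antiproliferative factor, at 2.58, and 1 was lower, Plk2, at -2.15. From Myog to Acta1 1 of 7 was higher, Ccng1, at 2.17. The median ratio of the list was 0.28 and -0.10 at these steps, and that of all genes was -0.07 and -0.11.

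Neurons were the other differentiating cells. At E11.5 Cdkn1a stood at 26.4 [21.9 to 31.5] UPM in neurons, in 8.98% of cells, against 1291 UPM in the Acta1 gate. Cdkn1c was 2053 [2012 to 2095] UPM, Cdkn1b 31.1 [26.2 to 36.6], Gadd45g 295 [279 to 311], Gadd45a 47.1, Gadd45b 4.97 and Rb1 33.1 UPM. Ccnd1 was 436 [417 to 455], Ccnd2 124 and Ccnd3 43.2 UPM. Neural progenitors, gated on Sox2 and Sox3 without neuronal genes, were taken as the cells before exit: 213 non-cycling cells at E9.5 and 26 at E11.5.

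Cdkn1c and Gadd45g were higher in neurons than in these progenitors at both stages. The neuron side here includes cycling neurons (46 in the E9.5 library, 45 in the other), while the progenitors are non-cycling. The ratio for Cdkn1c was 2.27 [2.09 to 2.45] in the E9.5 and 1.71 [1.47 to 1.97] in the E11.5 library, and for Gadd45g 5.03 [4.57 to 5.52] and 1.49 [0.89 to 2.15]. Ccnd2 was lower at both, by -1.47 and -1.99. At E9.5 the third higher member was Rb1 at 1.03 [0.34 to 1.74]. At E11.5 Ccnd3 was also lower at -1.34 [-1.96 to -0.67], and Gadd45a and Cdkn1a were higher at 1.78 [0.21 to 4.07] and 1.53 [-0.36 to 4.59], on 3 and 2 progenitor UMIs. That made 3 of 7 higher (8.49% of all genes) and 1 lower (4.24%) at E9.5, and 4 of 9 higher (22.1%) and 2 lower (7.78%) at E11.5. At E11.5 Cdkn1a, Gadd45a and Gadd45g met the minimum only through neurons, with 2, 3 and 23 progenitor UMIs, and the Cdkn1a interval spanned 0. At E9.5 the same held for Gadd45g, with 40 progenitor UMIs. These counts thus favour members high in neurons. With non-cycling neurons only, a comparison added after the values were seen, 3 of 7 were higher (10.2%) and 2 lower (11.8%) at E9.5, where Gadd45a at 1.03 took the place of Rb1, then at 0.85, and Ccnd3 joined the lower members at -1.42. At E11.5 it was again 4 of 9 higher (22.6%) and 2 lower (8.37%). Of the other CDK inhibitors, Cdkn2d was higher in neurons at both stages, by 2.24 and 2.70.

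Ccnd1 was not lower in neurons taken as a class than in non-cycling progenitors. Its ratio of all neurons over non-cycling progenitors was 0.18 in the E9.5 library and 0.39 [0.05 to 0.74] in the E11.5 library. With non-cycling cells on both sides, as in the muscle ratio of -2.39 from Pax7 to Acta1 cells, it was 0.29 [0.08 to 0.51] and 0.02 [-0.32 to 0.39], so the E11.5 levels, 339 and 334 UPM, did not differ beyond counting error. The share of non-cycling cells with a Ccnd1 UMI was 53.8% in 26 E11.5 progenitors and 22.2% in 356 neurons, at median depths of 8174 and 8987 UMIs. After thinning to 5000 UMIs it was 63.2% of 19 progenitors and 20.5% of 288 neurons, without the shallow cells. With all cells on both sides, Ccnd1 was lower in E11.5 neurons, at 436 [417 to 455] against 655 [587 to 729] UPM in 50 progenitors. Cycling progenitors had 890 UPM there. At E9.5 the same intervals overlapped, 334 [305 to 365] against 301 [292 to 309] UPM. The share of cycling cells was 48.0% in E11.5 progenitors and 11.2% in neurons, and its part was not tested. The difference between the lineages was not tested. Non-cycling Acta1 cells had 32.4-fold less Ccnd1 than non-cycling neurons, a ratio of -5.02 [-5.58 to -4.51]. In that comparison 5 of 10 members were higher in Acta1 cells (11.2% of all genes), Cdkn1a at 5.81, Gadd45b at 4.15, Ccnd3 at 3.58, Cdkn1c at 2.13 and Rb1 at 1.41. Gadd45b met the minimum only through Acta1 cells, with 6 UMIs in non-cycling neurons. The 3 lower members (30% of all genes) were Ccnd1, Cdkn1b at -2.28 and Gadd45g at -1.61.

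**Figure D4:**
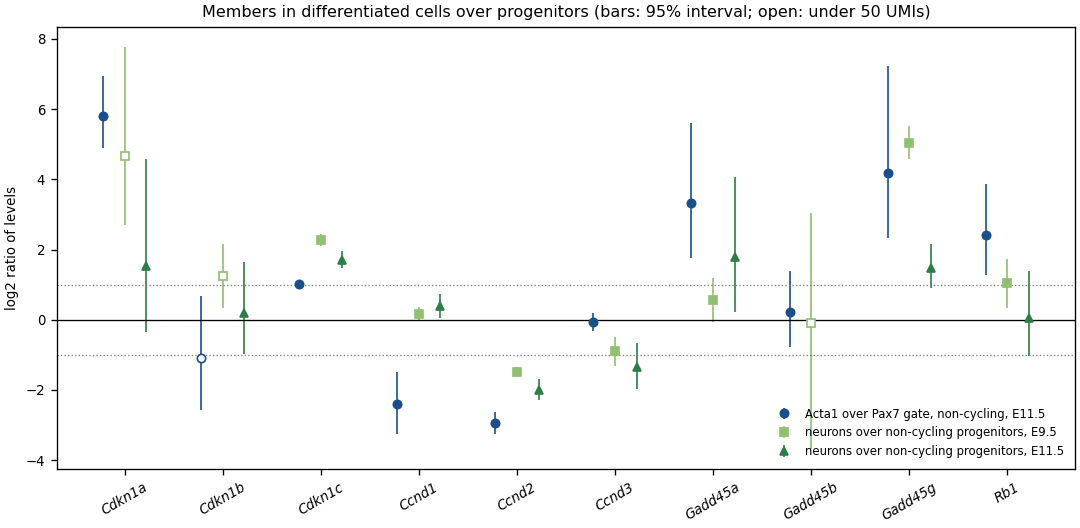
Log2 ratios with exact 95% intervals of each member in Acta1 over Pax7 gate cells (blue circles, non-cycling, E11.5) and in all neurons over non-cycling neural progenitors at E9.5 (light green squares) and E11.5 (dark green triangles); open symbols have under 50 UMIs, dotted lines mark 2-fold, and Gadd45b at E11.5 has no neuronal symbol because progenitors had 0 UMIs. Cdkn1c is above 0 and Ccnd2 below 0 in all 3, and Ccnd1 is at -2.39 in muscle but 0.18 and 0.39 in neurons (0.29 and 0.02 with non-cycling neurons only).

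Neurons were uneven. The 40 of 401 E11.5 neurons with the most Ccnd1 UMIs, 12 or more each, held 89.0% of all Ccnd1 UMIs of the class, a split made after the values were seen. By that choice Ccnd1 was 2577 UPM in the 40 cells and 56.5 UPM in the other 361, so the class level stands for few of its cells. Most neurons lay below 334 UPM, the pooled level of E11.5 non-cycling progenitors. That sets single cells against a pooled level: only 14 of those 26 progenitors had a Ccnd1 UMI, so others lay below it too. These 40 cells also had more Gadd45g (831 against 199 UPM in the other 361), Cdkn1c (4127 against 1686) and Cdkn1a (106 against 12.2), and less Tubb3 (707 against 2810) and Stmn2 (944 against 2922 UPM). Of them 14 were cycling and 5 were Scrublet calls, against 31 and 19 of the others. Binned by Elavl3, Elavl4 and Stmn2 UMIs (3 to 9, 10 to 29, 30 or more), Gadd45g was 704, 692 and 54.8 UPM at E11.5 and 946, 420 and 39.3 UPM at E9.5. Cdkn1c was 3434, 3324 and 1273 UPM at E11.5 and 903, 699 and 542 UPM at E9.5. Ccnd2 was 423, 167 and 46.9 UPM at E11.5, but 485, 439 and 621 UPM at E9.5, where the last bin held 13 cells. Median depth over these bins was 6207, 7373.5 and 13405 UMIs at E11.5 and 8117, 8081.5 and 8305 UMIs at E9.5, and its part was not tested. The bin with the most of these neuronal transcripts had the least Gadd45g at both stages. In muscle the Acta1 gate had less Gadd45g than the Myog gate, but over the Myog bins Gadd45g was highest, at 396 UPM, in the last.

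Stage differences were read in classes with cells at both stages, and they include any difference between the 2 libraries. Cdkn1c was higher at E11.5 in sclerotome at 3.01 [2.96 to 3.07], from 166 to 1340 UPM, in neural crest at 3.67 [3.57 to 3.76], from 159 to 2019 UPM, and in neurons at 1.39. With a looser Pax7 gate of 1 UMI, 96 cells at E9.5 and 219 at E11.5, it was 186 and 3589 UPM, a ratio of 4.27 [4.12 to 4.42]. In the main Pax7 gate, 19 cells had 160 [126 to 201] UPM at E9.5 and 103 cells had 3878 UPM at E11.5. Cdkn1c was thus higher at E11.5 in sclerotome, neural crest, neurons and Pax7 cells. The 7 E9.5 cells past the Acta1 gate had 9186 [8703 to 9690] UPM, against 9158 UPM in the 199 of E11.5. That near match mixed unlike cells. Of the 7, 5 non-cycling cells had 16861 [15911 to 17853] UPM and 2 cycling cells 2254 [1931 to 2614] UPM. The non-cycling and cycling cells of E11.5 had 9323 and 8255 UPM. The 13 E9.5 Myog cells had 4323 UPM, against 9261 UPM at E11.5.

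Other members differed by stage in some classes. In sclerotome 4 of 10 members were higher (16.2% of all genes) and 0 lower (3.88%), with Ccnd2 at 1.22, Cdkn1b at 1.16 and Gadd45b at 1.67. In neural crest 4 of 9 were higher (12.9%), among them Gadd45g at 1.52 and Rb1 at 1.37, and Gadd45a was lower at -2.06 [-2.42 to -1.71] (4.25%), from 66.6 to 16.0 UPM. In neurons 1 of 9 was higher (18.6%) and 2 were lower (5.75%), Ccnd2 at -1.94 and Gadd45g at -1.12. The neurons of the 2 stages differed in makeup, with 33.8% cycling in the earlier and 11.2% in the later library, and with 13 of 136 against 189 of 401 cells in the bin of 30 or more Elavl3, Elavl4 and Stmn2 UMIs. Within those bins Gadd45g was lower at E11.5 only in the first (946 to 704 UPM), higher in the middle one (420 to 692 UPM), and overlapping in the last. The bins use raw UMIs and differed in median depth between the stages, so like bins need not hold like cells. In the looser Pax7 gate Ccnd3 was 1.46 [1.26 to 1.67] and Ccnd1 -1.41 [-1.63 to -1.19]. Gadd45b went from 1 UMI in 96 cells to 96 UMIs in 219 cells, a ratio of 5.71 [3.20 to 11.03]. The immediate early list was also higher at E11.5, with summed levels of 311 against 228 UPM in sclerotome, 371 against 179 in neural crest and 337 against 142 UPM in neurons, and its part in the Gadd45b difference was not tested.

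**Figure D5:**
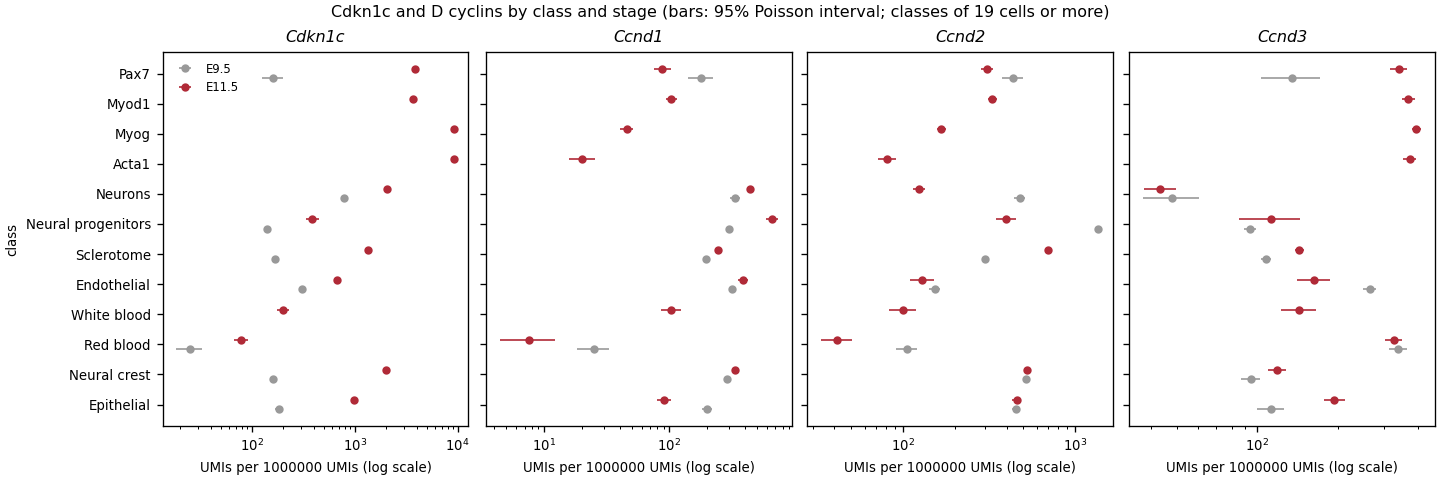
Levels of Cdkn1c and the D cyclins (UMIs per 1000000 UMIs, log axes) in each class at E9.5 (grey) and E11.5 (red), with exact 95% Poisson intervals, for classes of 19 or more cells. Cdkn1c is further right at E11.5 in every class shown at both stages. Ccnd3 is highest in the E11.5 muscle gates and in red blood cells of both stages, while the 19 Pax7 cells of E9.5 are at 134.

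Genes with the most similar pattern were sought over 21 classes of at least 50 cells, among 8037 genes, by the Pearson correlation of log2(UPM + 1). The classes share 2 libraries, so r is a description. For Cdkn1a they were Apobec2 (0.88), Chrna1 (0.87), a subunit of the acetylcholine receptor of muscle, and Gm7325 (0.87), for Cdkn1c Kansl1l (0.95), and for Rb1 Hspa4l (0.84). For Ccnd1 the closest was Tspan5 (0.92), for Ccnd2 Enkd1 (0.93), for Ccnd3 Ank1 (0.83) and for Gadd45g Cdk5r1 (0.82), an activator of the neuronal kinase Cdk5. For Cdkn1b it was Rdh11 (0.82), for Gadd45a Tmod1 (0.74) and for Gadd45b Tpm1 (0.89).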

How the data were processed

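Cells of inter-limb somites were sequenced at E9.5 and E11.5, 1 library per stage from 3 pooled embryos. The authors deposited raw UMI counts per gene and barcode, made with Cell Ranger 3.0.1 on mm10 per the submitters' processing notes and methods, with no normalization. Counts were read with scanpy 1.11.5, numpy 2.4.6 and scipy 1.17.1 in Python 3.11.15. Gates used raw UMIs, and cells that met more than 1 gate (113 at E9.5, 119 at E11.5) or none were in no class. Gates were Pax7 at least 2 without Myod1 or Myog, Myod1 at least 2 with Myog at most 1, and Myog at least 5. Each of these gates also required Acta1 under 5. The Acta1 gate took Acta1 at least 5 with Myog. For neurons the gate was Tubb3 at least 3 with a sum of at least 3 for Elavl3, Elavl4 and Stmn2. The muscle gates also excluded Sox10 and allowed Sox2 and Sox3 at most 1 UMI together, and the Pax7 gate allowed no UMI of these. UMIs were summed per class, since cells are not replicates, and no test was run. Free RNA was not removed. Scrublet was run with an expected rate of 8%. The ratio was checked on simulated Poisson counts, which hold no spread between cells. Genes named were all 10 members, at most 4 of each pathway list by ratio, and the genes most alike. Members, gates and lists were chosen with earlier results of these data known. Of the muscle markers listed, 1 was not matched by symbol.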

Additional observations from a re-analysis of the deposited data

Results flagged for a closer look

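The ratio of Ccnd1 had opposite signs in the lineages compared, -2.39 for Acta1 over Pax7 cells and 0.39 for neurons over neural progenitors, both at E11.5. The neuron side included cycling cells, and with non-cycling neurons only the ratio was 0.02 [-0.32 to 0.39], so the opposite sign was not seen between like cells. With all cells on both sides Ccnd1 was lower in neurons too, at 436 against 655 UPM. The ratio of Ccnd2 in cycling over non-cycling cells was -0.76 in the Pax7 gate and 0.58 in the Myog gate at E11.5. Both pairs were picked out because the 95% counting intervals of the first values given lie on opposite sides of 0. With 1 library per stage, neither difference was tested.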

How the results depend on the processing

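Depth limits the low members, Cdkn1b, Gadd45b and, in progenitors, Cdkn1a, Gadd45a and Rb1, where classes held 1 to 40 UMIs. No paired analysis was possible because each stage is 1 library. Over 13 settings beside the one reported, of which that without the 30 shared barcodes and the stage comparisons were added after seeing the data, 314 of 348 counts of members stayed within 1.5 times, and 678 of 700 values of the 56 ratios past 2-fold stayed past it.

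The counts that moved were these. They are given without the share of all genes at each setting, so they describe the settings only. Pax7 to Myod1: 1 higher with looser gates, and 1 higher and 2 lower with no UMI minimum. Myog to Acta1: 1 lower with stricter gates, 0 higher and 1 lower after thinning, and 2 higher as the mean over cells. Pax7 to Acta1: 1 lower without Scrublet calls and 1 after thinning. Pax7 to Myog among cycling cells: 2 lower with stricter gates. Cycling over non-cycling Pax7 cells: 1 higher as UMIs per cell and 2 lower with no minimum, and Myod1 cells: 1 higher and 1 lower with no minimum. Cycling over non-cycling Myog cells: 2 higher with stricter gates, 0 higher and 1 lower after thinning, and 3 higher and 0 lower as UMIs per cell. Neurons over progenitors at E9.5: 2 lower with stricter gates, with non-cycling cells free of Mki67 and Top2a, without Scrublet calls, after thinning and as the mean over cells, 0 lower with no upper limit on genes, and 5 higher with no minimum. With non-cycling neurons only, also added after seeing the data, 2 were lower at E9.5. At E11.5: 1 lower as UMIs per cell. Neurons by stage: 1 lower with looser gates, with stricter gates and after thinning, and 2 higher with no minimum. Sclerotome by stage: 1 lower with stricter gates, with no upper limit on genes and as UMIs per cell. The cause was not tested.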
